A study of Mus musculus with 21 samples.

Results

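The complement system is described here through 38 genes for its components, receptors and regulators, measured by RNA sequencing in 21 mouse livers. The genes were taken from the count table by their Ensembl identifiers, matched to symbols through GENCODE M21, and all 38 of 38 were found among its 52636 identifiers. Each of the 38 passed the filter on low counts, which kept 17104 genes in all. The mice were wild-type, with no genetic change named, and their strain, sex and age are not known from the labels. The chow group held 5 livers, taken after 8 weeks on normal chow and called week 0 by the submitters. The other groups held 8 livers after 8 weeks and 8 livers after 16 weeks of CDA-HFD, a high-fat diet that lacks choline and supplies defined amino acids, used to produce steatohepatitis and fibrosis. No chow liver accompanies the 16-week group, so at 16 weeks the length of feeding and the age of the mice cannot be told apart. Both diet groups are compared with the same 5 chow livers, and their changes are therefore not independent of each other.

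Complement is a cascade of plasma proteins that tags surfaces for uptake, calls in leukocytes and can open pores in membranes. It starts by 3 routes: the classical route, in which C1q binds antibody or altered surfaces; the lectin route, in which mannose-binding lectins, collectins and ficolins bind sugars; and the alternative route, an amplification loop around C3. All of them cleave C3 and then C5, release small fragments that act on receptors of myeloid cells, and end in the C5b-to-C9 pore, while regulators in plasma and on cells hold the cascade back. Hepatocytes make most of the plasma components, whereas C1q, properdin and the receptors come mainly from macrophages and other myeloid cells. On that textbook basis 21 members were set down as hepatocyte-made and 10 as macrophage-made (C1qa, C1qb, C1qc, Fcna, Cfp, C3ar1, C5ar1, C5ar2, Itgam and Itgb2). The label macrophage-made is a short name that does not exclude neutrophils or other leukocytes, and no source was measured here. The remaining 7 have other or several sources (C6, C7, Cfd, Colec10, Cd55, Cd59a and Cd46). In whole liver, fewer cells of a type and less RNA per cell cannot be told apart.

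Myeloid cells use the transcription factor PU.1 and hepatocytes use HNF1. The stretches before 4 members are shown, of which 2 genes (C1qb and Itgam) rose and 2 (C8a and C8b) fell. All 4 hold the motif marked in them, so they do not show a link between motif and direction. Each is the 250 bases before the RefSeq start on GRCm38.p6, written 5′ to 3′ on the gene's own strand. Capitals mark GAGGAA or its reverse complement TTCCTC, the core of PU.1 sites, in C1qb (chr4:136886201-136886450, minus strand) and Itgam (chr7:128062390-128062639, plus strand). In C8a (chr4:104876399-104876648, minus strand) and C8b (chr4:104766067-104766316, plus strand) capitals mark GTTAAT or its reverse complement ATTAAC, 1 arm of the HNF1 palindrome.
C1qb: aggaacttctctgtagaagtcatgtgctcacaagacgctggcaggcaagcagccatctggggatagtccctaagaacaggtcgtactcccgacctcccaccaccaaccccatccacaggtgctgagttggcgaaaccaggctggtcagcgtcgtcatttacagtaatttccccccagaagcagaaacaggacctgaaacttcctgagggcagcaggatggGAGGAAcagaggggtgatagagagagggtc
Itgam: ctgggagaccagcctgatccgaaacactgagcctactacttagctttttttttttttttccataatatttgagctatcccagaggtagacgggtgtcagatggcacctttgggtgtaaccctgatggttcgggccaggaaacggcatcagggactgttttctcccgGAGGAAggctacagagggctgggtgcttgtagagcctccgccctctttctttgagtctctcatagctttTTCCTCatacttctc
C8a: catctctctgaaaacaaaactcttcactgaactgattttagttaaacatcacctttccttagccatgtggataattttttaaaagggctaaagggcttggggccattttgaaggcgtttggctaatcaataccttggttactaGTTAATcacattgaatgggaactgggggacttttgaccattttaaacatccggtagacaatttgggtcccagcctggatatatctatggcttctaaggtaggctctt
C8b: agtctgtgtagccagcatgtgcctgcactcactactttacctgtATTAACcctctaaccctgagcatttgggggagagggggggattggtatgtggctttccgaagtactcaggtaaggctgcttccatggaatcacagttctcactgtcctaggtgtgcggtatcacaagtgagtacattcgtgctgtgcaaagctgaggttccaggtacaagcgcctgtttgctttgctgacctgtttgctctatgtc
The marked letters begin 30 bases before the start in C1qb, 84 and 15 bases before it in Itgam, 107 bases before it in C8a and 206 bases before it in C8b. RefSeq windows were matched by symbol for 28 of the 38 members. Searched on both strands, GAGGAA was found in 6 of those 28 (C1qb, C1qc, C5ar2, Cd59a, Fcna and Itgam) and in 23.3% of the 32851 windows of all genes. GTTAAT was found in 8 of the 28 (C1ra, C4bp, C7, C8a, C8b, Cfp, Hc and Vtn) and in 6.43% of all windows. Members were counted as genes, by a match in any window of the gene, whereas the percentages are over windows, so the 2 are not the same measure. These are matches of letters in a window and not measured binding. Cfp and C7, which are not hepatocyte-made, carry that HNF1 arm as well. C3ar1, which rose, has a window without GAGGAA, and C9 and Masp2, which fell, have windows without GTTAAT.

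Total counts ran from 29037525 to 48901145 per library. Values are given as CPM, counts scaled per library after TMM scaling and, where genes are compared with each other, as RPKM, which also divides by exon length. For the groups of 8 livers the lowest, median and highest values are given in that order. Hepatocyte transcripts outside complement, from a list of 20 secreted hepatocyte proteins such as albumin, were abundant in every library. They summed to 166900 to 195100 CPM in chow, 138100 to 570100 CPM at 8 weeks and 107600 to 147700 CPM at 16 weeks. The 570100 CPM was in the third 8-week liver, and without it the highest 8-week sum was 266500 CPM. The third 8-week liver stood furthest apart, with 0.25% of its counts on mitochondrial genes against 2.22% to 3.18% in the other 15 CDA-HFD livers. It also held squamous transcripts at 1495 CPM and muscle transcripts at 2700 CPM, against chow maxima of 2.40 and 376 CPM. Squamous transcripts were also far above chow in 8-week replicate 6 (265.8 CPM) and in 16-week replicates 1, 4 and 7 (234.2, 70.6 and 143.5 CPM). Acinar pancreas transcripts reached 8062 CPM in another 8-week liver and at most 31.5 CPM in chow. Calls, and 8-week means that cross the chow mean, are given without the third 8-week liver where leaving it out changes them.

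At 8 weeks 12 members were higher than in chow and 9 were lower, and the other 17 were not called (edgeR quasi-likelihood test, Benjamini-Hochberg adjusted p at most 0.05 over all 17104 genes). Among all genes 30.8% were called higher and 20.5% lower, so the 12 of 38 higher were close to that background and the 9 of 38 were near it as well. The median log2 change was 0.03 over the members and 0.16 over all genes. At 16 weeks 10 members were higher and 19 lower, where 29.4% of all genes were higher and 22.5% lower, and the median was -0.56 against 0.03 for all genes. From 8 to 16 weeks 2 members rose and 19 fell, against 10.6% and 11.0% of all genes. The libraries of the groups did not overlap for 14 members at 8 weeks (8 above chow and 6 below) and for 27 at 16 weeks (8 above and 19 below). Over all genes the share without overlap was 30.1% at 8 weeks and 50.5% at 16 weeks.

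The members split by source. All 10 macrophage-made members rose at 8 weeks, with a median log2 change of 2.48, or 1.83 without the third 8-week liver. At 16 weeks 8 of the 10 rose, Fcna fell and Cfp was not called, with a median of 2.08. Of the 21 hepatocyte-made members only Colec11 and Cfb rose at 8 weeks and 7 fell, with a median of -0.20. By 16 weeks 15 of the 21 had fallen and Colec11 alone was higher, with a median of -0.73, and 15 of the 21 were lower at 16 than at 8 weeks. The other 7 members held 2 falls at 8 weeks, and 3 falls and 1 rise at 16 weeks.

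**Figure D1:**
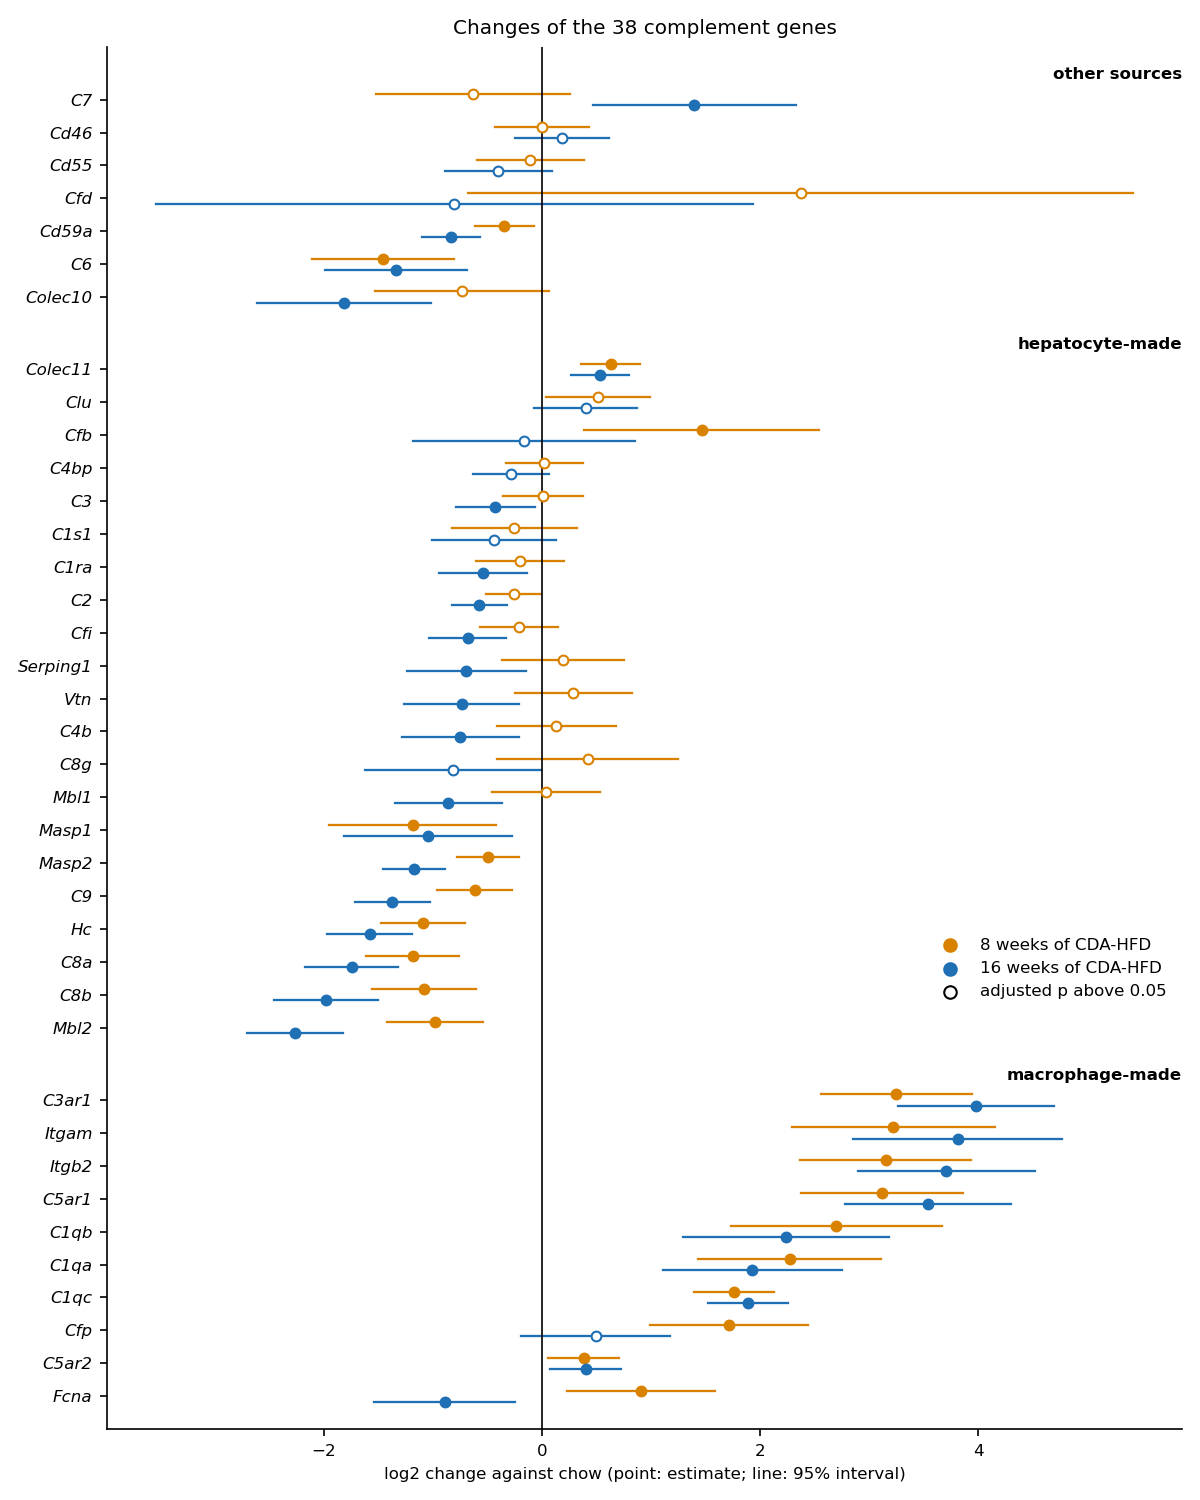
Log2 change of each of the 38 genes against chow at 8 weeks (orange) and 16 weeks (blue), with 95% intervals, grouped by main source; filled points have an adjusted p at most 0.05. The macrophage-made genes lie to the right except Fcna at 16 weeks, and most hepatocyte-made genes lie further to the left at 16 weeks than at 8 weeks.

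How far the hepatocyte-made members fell depends on the reference scale. With libraries scaled by total counts alone, the median of all genes at 16 weeks moved by 0.53 on the log2 scale, from 0.03 to 0.56. Of all 17104 genes 986 rather than 3847 were then called lower, and of the 21 hepatocyte-made members 7 rather than 15. Their median was then -0.21, which is 0.77 below the median of all genes, and with TMM it was 0.76 below; 19 of the 21 lay below the median of all genes under either scale. Among all called genes the share called higher at 16 weeks was 56.6% with TMM and 89.6% with total counts. At 8 weeks that share was 60.1% and 78.3%, and between 8 and 16 weeks 49.0% and 94.8%. Summed over the 21 genes, hepatocyte-made complement came to 26080 ± 3207 CPM in chow (SD, n = 5). It came to 25490 ± 8202 CPM at 8 weeks (n = 8) and 17480 ± 1255 CPM at 16 weeks (n = 8). On this scale no 16-week liver reached the lowest chow liver, at 18930 against 20850 CPM. Such sums depend on the TMM scale and are not shares of the counts of a library. The 10 macrophage-made genes summed to 292 ± 37.0 CPM, 1300 ± 923 CPM and 1086 ± 197 CPM, and no diet liver came down to the highest chow liver, 350.0 CPM. Without the third 8-week liver the 8-week sums were 22730 ± 2719 CPM and 980 ± 189 CPM (n = 7).

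C1q, the recognition molecule of the classical route, rose at both times. It is built from 3 chains, and their genes C1qa, C1qb and C1qc lie side by side at chr4:136880129-136898803, with gaps of 3.62 and 2.85 kb. C1qa stood at 62.8, 53.0, 67.8, 52.7 and 74.3 CPM in chow, 158, 179 and 984 CPM at 8 weeks and 181, 222 and 305 CPM at 16 weeks. C1qb stood at 61.0, 60.5, 72.1, 63.5 and 85.9 CPM in chow, 200.2, 248 and 1658 CPM at 8 weeks and 231, 308 and 412 CPM at 16 weeks. C1qc stood at 53.2, 49.3, 61.1, 52.5 and 67.3 CPM in chow, 153, 172 and 259 CPM at 8 weeks and 162, 195 and 275 CPM at 16 weeks. For each chain every diet liver was above every chow liver. The log2 changes at 8 weeks were 2.27 ± 0.40 (SE) for C1qa, 2.70 ± 0.47 for C1qb and 1.76 ± 0.17 for C1qc, with edgeR adjusted p of 0.00011, 8.4e-05 and 1.0e-07. At 16 weeks they were 1.93 ± 0.39, 2.24 ± 0.45 and 1.89 ± 0.18, with adjusted p of 0.00033, 0.00030 and 2.0e-08. None of the 3 differed between 8 and 16 weeks (adjusted p 0.47, 0.38 and 0.55, with 95% intervals from -1.21 to 0.43 over the 3). The third 8-week liver carried the highest C1qa, C1qb and C1qc at 8 weeks, and without it the 8-week changes were 1.69, 1.98 and 1.68.

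Per length, the balance of the 3 chains shifted slightly. C1qb made up a median of 42.1% of the C1q RPKM in chow (38.9% to 42.9%) and 46.9% at 16 weeks (45.2% to 47.9%), without overlap. C1qc went from 19.3% (18.8% to 19.95%) to 17.2% (16.0% to 17.8%), also without overlap. C1qa likewise went from 38.6% (37.19% to 41.96%) to 35.8% (35.21% to 36.98%), without overlap. In the third 8-week liver C1qc made up 5.16%, against 15.4% to 19.4% in the other 7. C1qc has the longest exons of the 3 genes, 1931 bases, and C1qa the shortest, 1040 bases against 1088 for C1qb.

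Macrophage markers were higher as well, by unlike amounts. All 10 of a list of macrophage markers were higher at both times, and their sum was 218 to 304 CPM in chow, 953 to 6538 CPM at 8 weeks (at most 3202 CPM without the third liver) and 2523 to 4595 CPM at 16 weeks. Lyz2 and Gpnmb had the largest medians at 16 weeks, 1606 and 1067 CPM, against 71.5 and 0.287 CPM in chow. The median of Adgre1 went from 31.8 CPM in chow to 83.9 CPM at 16 weeks, and that of Csf1r from 77.4 to 221 CPM. None of the 10 was at 0 in any library. Of 6 Kupffer cell markers 5 were higher at 8 weeks. At 16 weeks only Cd5l was higher, Timd4 was lower and the other 4 were not called, and all 6 were lower at 16 than at 8 weeks. Their sum was 293 to 378 CPM in chow, 508 to 1213 CPM at 8 weeks and 239 to 525 CPM at 16 weeks. All 8 neutrophil markers were higher at 8 weeks and 6 at 16 weeks, with sums of 3.71 to 24.1, 18.4 to 143 and 23.2 to 45.5 CPM. The part of cell numbers in the rise of the macrophage-made members was not tested.

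C1r and C1s, the proteases that C1q carries, are hepatocyte-made and did not share its rise. C1ra, one of 2 mouse genes for C1r, averaged 229 ± 23.3 CPM in chow, 200 ± 55.9 CPM at 8 weeks and 158 ± 26.1 CPM at 16 weeks, and its fall at 16 weeks was called (log2 -0.54, adjusted p = 0.024, or 0.062 without chow replicate 4). C1s1 averaged 488, 410.3 and 360.4 CPM and was not called at either time (adjusted p = 0.45 and 0.19), but without the third 8-week liver, whose C1s1 of 71.9 CPM is the lowest of all, the 16-week log2 change of -0.44 was called (adjusted p = 0.0012). Both genes have close copies, C1rb and C1s2, at 0.283 and 0.170 CPM in chow, so the split of reads within each pair is uncertain. C4b and C2, which form the C3 convertase of the classical and lectin routes, were not called at 8 weeks and were lower at 16 weeks. C4b averaged 1266 ± 310, 1387 ± 755 and 755 ± 119 CPM (16 weeks log2 -0.75, adjusted p = 0.019), a call lost without chow replicate 3 or 5 (adjusted p 0.051 and 0.063). The C4b mean at 8 weeks was 1139 CPM, below the chow mean, without the third 8-week liver. C2 averaged 83.0 ± 9.68, 69.5 ± 8.27 and 55.8 ± 8.55 CPM (16 weeks log2 -0.57, adjusted p = 0.00044), and without chow replicate 2 its 8-week log2 change of -0.33 was called as well (adjusted p = 0.039).

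The lectin route showed falls and rises side by side. Mbl2, the mannose-binding lectin also called MBL-C (chr19:30232942-30239687), fell in steps: it stood at 439.5, 383, 386, 349 and 337 CPM in chow, 113, 194 and 282 CPM at 8 weeks and 52.9, 79.8 and 105 CPM at 16 weeks. None of the 3 groups overlapped another. Its log2 change was -0.98 ± 0.21 at 8 weeks (edgeR adjusted p = 0.00074), -2.26 ± 0.21 at 16 weeks (adjusted p = 2.3e-08) and -1.28 ± 0.19 between the diet groups (adjusted p = 0.00015). Mbl2 had the largest fall against chow of all 38 members at 16 weeks. Mbl1, the other mannose-binding lectin, was called lower at 16 weeks only, with 303 ± 29.7 CPM in chow, 312 ± 156 CPM at 8 weeks and 168 ± 36.1 CPM at 16 weeks (log2 0.04, adjusted p = 0.90, and -0.86, adjusted p = 0.0042). Without the third 8-week liver the Mbl1 mean at 8 weeks was 258 CPM, below the chow mean, and the log2 change was -0.24 (adjusted p = 0.18). Per length the ratio of Mbl2 to Mbl1 went from a median of 1.71 (1.47 to 2.48) in chow to 0.867 (0.580 to 1.45) at 8 weeks and 0.697 (0.495 to 0.925) at 16 weeks. In every chow liver Mbl2 was therefore the more abundant of the pair per length, and in every 16-week liver Mbl1 was.

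Collectins went opposite ways. Colec10, collectin liver 1, was set down as made by stellate cells and stood at 38.5, 45.7, 39.2, 33.9 and 41.1 CPM in chow, 5.77, 29.2 and 35.8 CPM at 8 weeks and 3.10, 10.6 and 21.9 CPM at 16 weeks. Its fall was called at 16 weeks only (log2 -1.82 ± 0.38, adjusted p = 0.00044; 8 weeks -0.73, adjusted p = 0.11), and every 16-week liver was below every chow liver. The summed stellate cell markers were 160 to 249 CPM in chow and 434 to 678 CPM at 16 weeks, with 3 of the 8 markers called higher and none lower. The markers differed: the median of Col1a1 went from 10.3 to 217 CPM and that of Pdgfrb from 14.8 to 71.3 CPM. Lrat (30.13 and 30.09 CPM) and Reln (57.1 and 66.2 CPM) overlapped chow. The sum is therefore not a measure of stellate cell number. Colec11, collectin kidney 1, pairs with the product of Colec10 but was set down as hepatocyte-made. Neither source was measured here, so Colec11 may not be a hepatocyte exception. Colec11 rose from 35.8 ± 4.80 CPM in chow to 55.4 ± 10.3 CPM at 8 weeks (log2 0.63, edgeR adjusted p = 0.00047). At 16 weeks it stood at 51.7 ± 4.99 CPM (0.53, adjusted p = 0.0016), and it did not overlap chow at either time.

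Fcna, ficolin A, a lectin of resident macrophages (chr2:25624666-25628030), was the only member called in opposite directions at the 2 times. It stood at 44.7, 56.3, 49.4, 52.5 and 60.2 CPM in chow, 37.6, 86.5 and 235 CPM at 8 weeks and 19.6, 25.8 and 40.3 CPM at 16 weeks. The 8-week livers overlapped chow from below and above, whereas every 16-week liver was below every chow liver. The log2 change was 0.91 ± 0.32 at 8 weeks (edgeR adjusted p = 0.024) and -0.89 ± 0.31 at 16 weeks (adjusted p = 0.020), and the difference between the diet groups was -1.80 ± 0.28 (adjusted p = 0.00024). The rise at 8 weeks was 0.58 (adjusted p = 0.048) without the third 8-week liver, and the call was lost without chow replicate 1 or 3 (adjusted p 0.050 and 0.058). Of the 6 Kupffer cell markers, given above, 5 were likewise higher at 8 weeks and all 6 were lower at 16 than at 8 weeks. Against chow at 16 weeks, where Fcna was lower, they differed from it. Timd4 was lower, Cd5l was higher and the other 4 were not called. The part of Kupffer cells in the Fcna values was not tested.

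**Figure D2:**
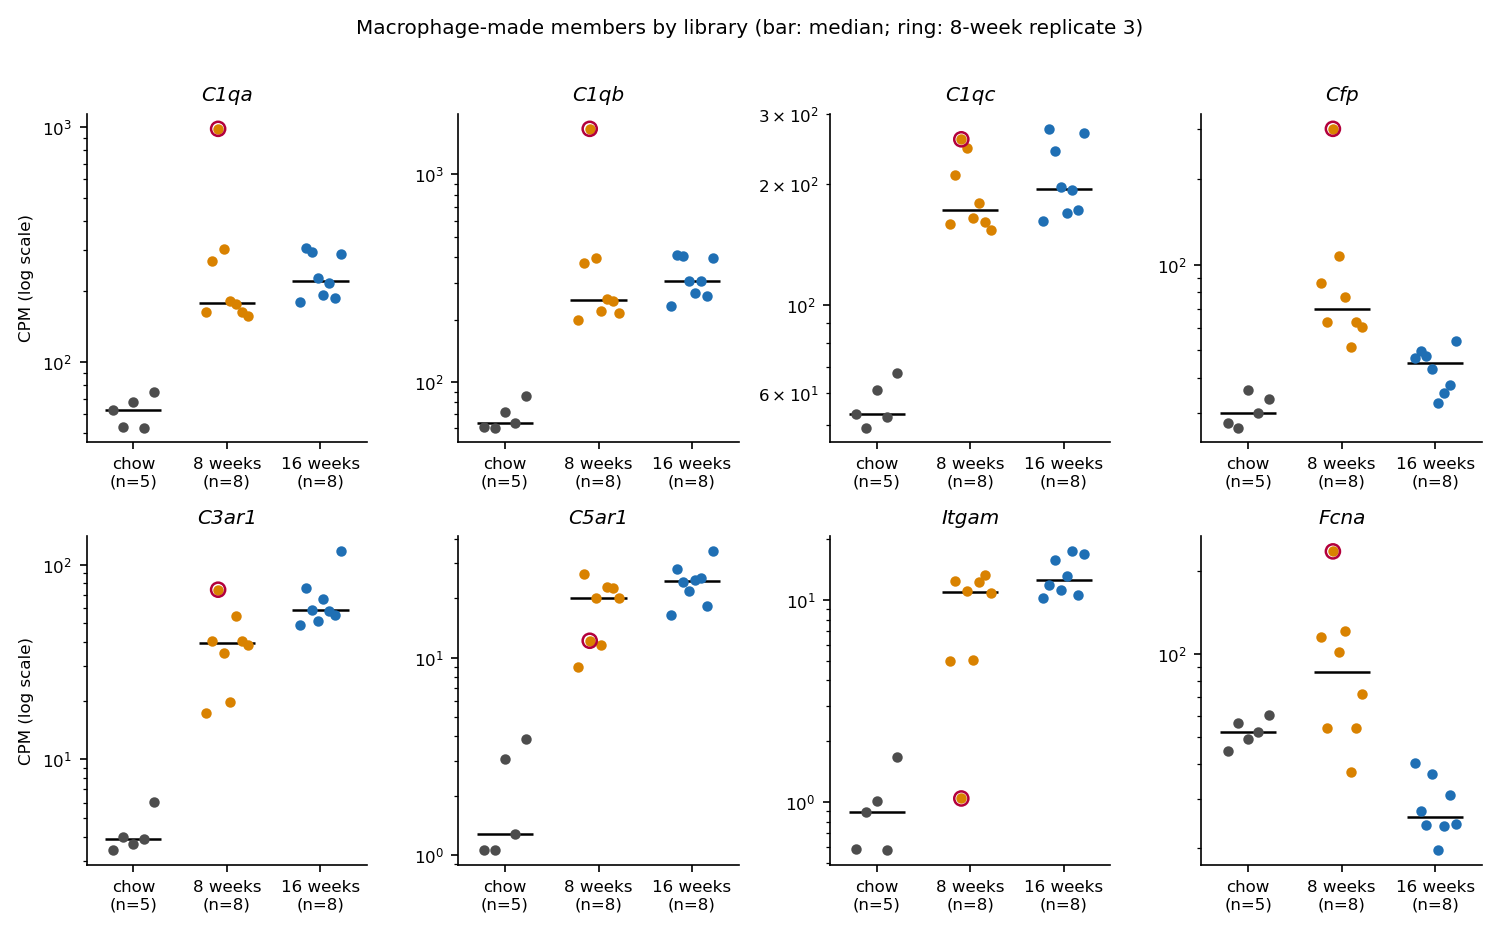
CPM on a log scale for 8 macrophage-made members in each library, with group medians as bars and the third 8-week liver ringed. C1q chains and receptors lie above chow at both times, apart from the ringed Itgam point of 1.04 CPM, and Fcna falls below chow at 16 weeks.

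The lectin route proteases fell. Masp1, the protease that starts the lectin route, stood at 92.3, 106, 98.2, 109 and 103 CPM in chow, 12.2, 49.2 and 77.4 CPM at 8 weeks and 27.2, 50.8 and 70.2 CPM at 16 weeks. Masp2, which cleaves C4 and C2, stood at 349.6, 316, 339, 354 and 334 CPM in chow, 182, 239 and 318 CPM at 8 weeks and 121, 142 and 191 CPM at 16 weeks. Masp1 did not overlap chow at either time and was not called between 8 and 16 weeks (log2 against chow -1.18 ± 0.37 and -1.04 ± 0.37, edgeR adjusted p = 0.012 and 0.022; 16 against 8 weeks 0.14, adjusted p = 0.79, 95% interval -0.55 to 0.83). Masp2 overlapped chow at 8 weeks and fell further by 16 weeks (-0.49 ± 0.14, adjusted p = 0.0058, then -1.17 ± 0.14, adjusted p = 3.9e-07). Each gene overlaps a neighbour on the opposite strand, Rtp4 at 14.5 CPM and Tardbp at 70.5 CPM in chow, and whether counting used the strand is not stated.

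C3, on which all routes converge, had the highest level of the 38 members in chow, 1807 ± 323 RPKM, and also at 16 weeks, 1344 ± 183 RPKM. In CPM it averaged 9291 ± 1663 in chow, 9338 ± 2377 at 8 weeks and 6912 ± 944 at 16 weeks. The 16-week fall was called narrowly (log2 -0.43, adjusted p = 0.046) with overlapping livers, and it turned to 0.11 (adjusted p = 0.60) with total counts alone. Leaving out any 1 of 13 livers ended the call as well, with adjusted p of 0.051 to 0.10: chow replicates 1, 3, 4 and 5, 8-week replicates 1, 6 and 7, and 16-week replicates 1, 2, 3, 4, 6 and 7.

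Of the alternative route, Cfb and Cfp rose at 8 weeks and neither was called at 16 weeks. Cfb, factor B, the protease of the C3 convertase of this route, stood at 48.3, 52.3, 70.5, 55.3 and 60.1 CPM in chow, 49.3, 78.7 and 705 CPM at 8 weeks and 38.2, 48.8 and 67.8 CPM at 16 weeks. Its 8-week change of 1.47 ± 0.52 (edgeR adjusted p = 0.023) became 0.48 (adjusted p = 0.030) without the third 8-week liver, which held the 705 CPM, and had an adjusted p of 0.053 without chow replicate 1. Cfb lies 0.085 kb from C2 at chr17:34856374-34862518, and C2 did not rise. Cfp, properdin, which steadies that convertase, stood at 27.6, 26.6, 36.2, 29.9 and 33.6 CPM in chow, 51.1, 69.96 and 301 CPM at 8 weeks and 32.6, 44.9 and 53.9 CPM at 16 weeks. All 8-week livers were above all chow livers (log2 1.71 ± 0.35, adjusted p = 0.00042; 1.22, adjusted p = 3.8e-06, without the third liver). At 16 weeks Cfp was 0.49 above chow (adjusted p = 0.22, and 0.011 without that library), and 1.22 below 8 weeks (adjusted p = 0.0060).

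Cfd, factor D or adipsin, the protease that activates factor B, is a product of fat cells and ranged widely within each group. It ran from 1.16 to 22.7 CPM in chow, 0.236 to 377 CPM at 8 weeks and 0.441 to 21.8 CPM at 16 weeks, and no comparison was called (adjusted p = 0.18, 0.64 and 0.073). In each group the liver with the most Cfd also had the highest sum of 5 fat cell markers: 10.1 CPM in chow, 44.5 CPM at 8 weeks and 12.9 CPM at 16 weeks. Without the third 8-week liver, which is that liver at 8 weeks, the log2 change at 8 weeks was -1.20 (adjusted p = 0.27) in place of 2.37. The part of fat tissue in the Cfd values was not tested.

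Most terminal components were already lower at 8 weeks. Of 7 genes for the pore and its starter C5, 5 were lower at 8 weeks and 5 at 16 weeks, with a median log2 change of -1.08 and -1.37. Hc, the gene for C5 (chr2:34983331-35061438), stood at 1453, 1177, 1599, 1546 and 1856 CPM in chow, 408, 698 and 1065 CPM at 8 weeks and 371, 534 and 666 CPM at 16 weeks. C6, which joins C5b first and was set down as having several sources, stood at 323, 429, 464, 545 and 471 CPM in chow, 46.8, 184 and 248 CPM at 8 weeks and 72.2, 188 and 287 CPM at 16 weeks. Both genes kept every diet liver below every chow liver. Hc changed by -1.09 ± 0.19 at 8 weeks and -1.58 ± 0.19 at 16 weeks (edgeR adjusted p = 7.5e-05 and 4.5e-07), and C6 by -1.45 ± 0.31 and -1.34 ± 0.31 (adjusted p = 0.00072 and 0.0011).

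C8a and C8b, the genes for the alpha and beta chains of C8, lie 11.1 kb apart at chr4:104766317-104876398 and fell together. C8a stood at 1480, 1464, 1595, 1489 and 1678 CPM in chow, 334, 692 and 921 CPM at 8 weeks and 276, 422 and 654 CPM at 16 weeks. C8b stood at 640.1, 507, 602, 708 and 624.9 CPM in chow, 155, 289.6 and 423 CPM at 8 weeks and 84.8, 136 and 238 CPM at 16 weeks. No diet liver reached any chow liver for either gene. The log2 changes were -1.18 ± 0.20 and -1.08 ± 0.23 at 8 weeks (edgeR adjusted p = 8.8e-05 and 0.00067) and -1.74 ± 0.20 and -1.98 ± 0.23 at 16 weeks (adjusted p = 4.5e-07 and 3.8e-07). C8b fell by 0.90 between 8 and 16 weeks (adjusted p = 0.0050) and C8a by 0.56 (adjusted p = 0.035), the latter a call that ended without any 1 of 8 diet livers (8-week replicates 1, 5 and 8 and 16-week replicates 2, 3, 5, 6 and 8, adjusted p 0.051 to 0.068).

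C8g, the gamma chain, is a small lipocalin on another chromosome (chr2:25498651-25501719) and was not called against chow. It averaged 301 ± 23.2 CPM in chow, 403 ± 420 CPM at 8 weeks and 171 ± 32.7 CPM at 16 weeks. Without the third 8-week liver the 8-week mean was 257.5 ± 84.3 CPM, below chow, and the log2 change went from 0.42 to -0.23 (adjusted p = 0.30). Every 16-week liver lay below every chow liver (215.6 against 274 CPM at the nearest), yet the log2 change of -0.81 had an adjusted p of 0.086, and of 0.00054 when the third 8-week liver, at 1425 CPM, was left out of the shared estimate of spread. Per length C8g went from a median of 23.6% of the C8 chains in chow (20.6% to 24.5%) to 36.7% at 16 weeks (30.8% to 49.2%), without overlap. C8g overlaps Fbxw5 on the opposite strand, at 59.1 CPM in chow and 54.7 CPM at 16 weeks.

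C9, which polymerises into the pore, stood at 1117, 769, 1174, 1080 and 1125 CPM in chow, 491, 686 and 919.5 CPM at 8 weeks and 328, 378 and 518 CPM at 16 weeks. Its livers overlapped chow at 8 weeks (log2 -0.61 ± 0.17, adjusted p = 0.0045) and not at 16 weeks (-1.37 ± 0.16, adjusted p = 6.1e-07). C7, which binds C5b6 and was set down as made by stromal cells, went the other way from a low level and stood at 2.57, 1.84, 3.74, 1.999 and 4.38 CPM in chow, 0.139, 1.55 and 5.20 CPM at 8 weeks and 4.16, 7.98 and 11.4 CPM at 16 weeks. It was not called at 8 weeks (log2 -0.63, adjusted p = 0.22, or -1.06 and 0.021 without replicate 6, at 5.20 CPM) and rose at 16 weeks (1.40 ± 0.45, adjusted p = 0.012; against 8 weeks 2.03 ± 0.39, adjusted p = 0.0013), with livers that overlapped chow. C6 and C7 lie 174 kb apart on chromosome 15, and the ratio of C7 to C6 per length went from a median of 0.0106 (0.00487 to 0.0124) in chow to 0.0546 (0.0264 to 0.176) at 16 weeks.

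**Figure D3:**
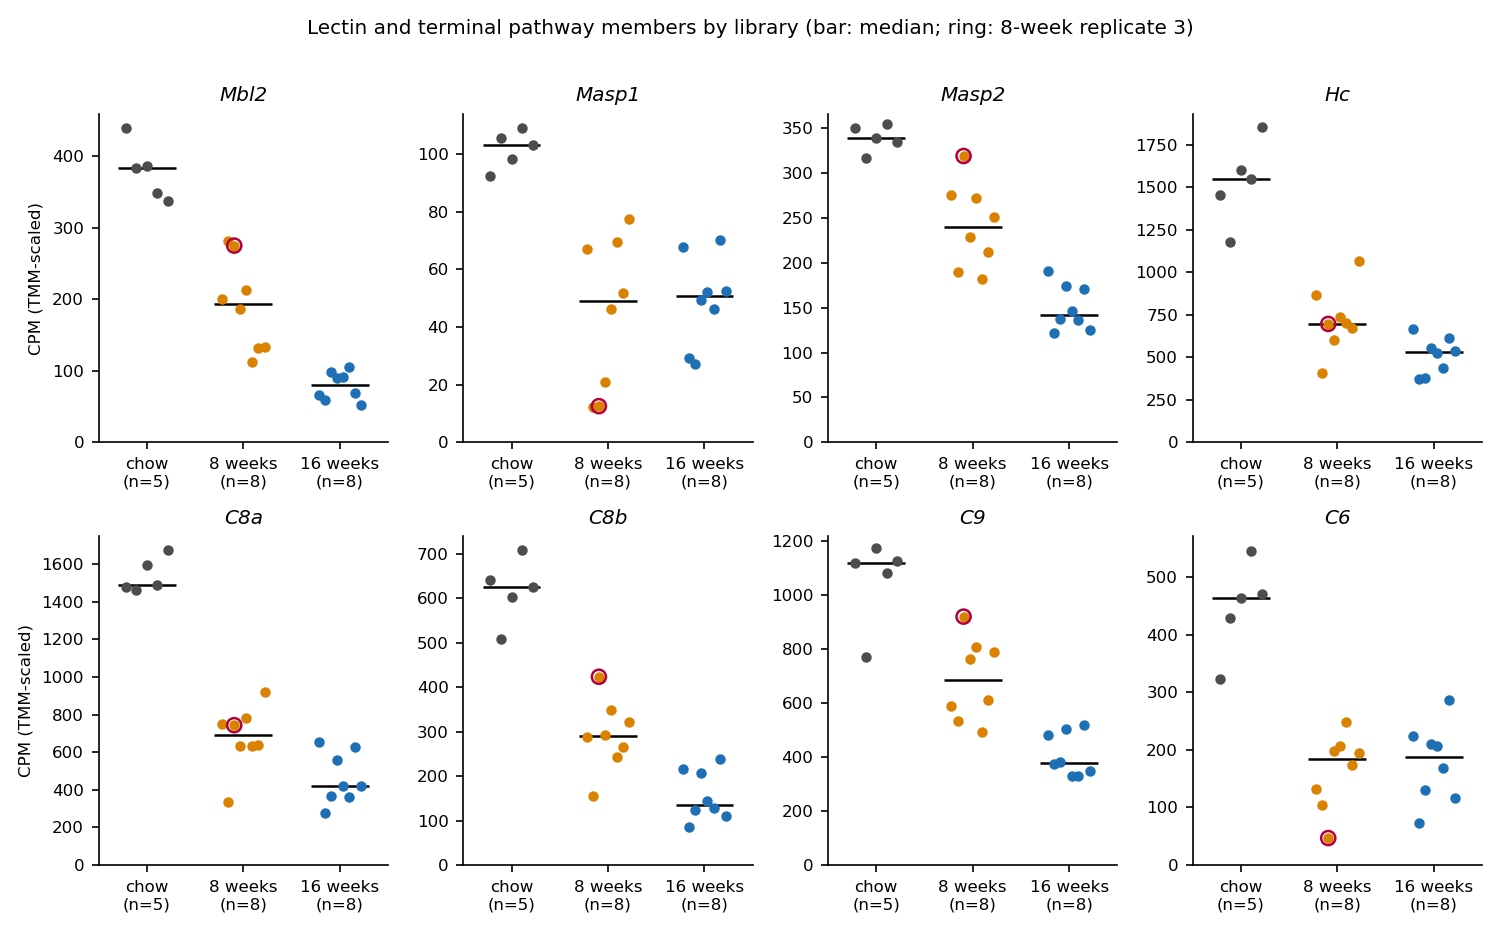
CPM in each library for 8 members of the lectin and terminal routes, with group medians as bars and the third 8-week liver ringed. Mbl2, Masp1, Hc, C8a, C8b and C6 lie below chow in every diet liver, and Masp2 and C9 in every 16-week liver.

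All 5 receptors were higher at both times, with median log2 changes of 3.15 and 3.71. C3ar1, the receptor for the fragment C3a (chr6:122847138-122856161), stood at 3.42, 3.99, 3.68, 3.91 and 6.03 CPM in chow, 17.3, 39.5 and 74.3 CPM at 8 weeks and 49.0, 58.3 and 117 CPM at 16 weeks. C5ar1, the main receptor for C5a, stood at 1.07, 1.06, 3.07, 1.27 and 3.89 CPM in chow, 8.99, 19.9 and 26.4 CPM at 8 weeks and 16.4, 24.4 and 34.5 CPM at 16 weeks. In both genes the lowest 8-week liver was above the highest chow liver. C3ar1 rose by 3.25 ± 0.33 on the log2 scale at 8 weeks and 3.98 ± 0.34 at 16 weeks, a 15.8-fold change (edgeR adjusted p = 1.4e-07 and 7.7e-09). C3ar1 and C7 were the 2 members higher at 16 than at 8 weeks (C3ar1 0.73 ± 0.25, adjusted p = 0.041). That C3ar1 call ended without any 1 of 10 livers (8-week replicates 1, 2, 4, 5, 7 and 8 and 16-week replicates 2, 5, 6 and 8, adjusted p 0.050 to 0.11). C5ar1 rose by 3.12 ± 0.36 and 3.54 ± 0.36, or 8.69-fold and 11.6-fold (adjusted p = 6.5e-07 and 8.0e-08).

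The receptor that takes up C3-tagged particles, CR3, is the pair of integrin chains Itgam (CD11b) and Itgb2 (CD18). Itgam stood at 0.588, 0.889, 1.01, 0.579 and 1.67 CPM in chow, 1.04, 11.0 and 13.3 CPM at 8 weeks and 10.3, 12.5 and 17.4 CPM at 16 weeks. Itgb2 stood at 10.4, 8.66, 9.11, 10.2 and 13.5 CPM in chow, 13.9, 101 and 154 CPM at 8 weeks and 106, 136 and 170 CPM at 16 weeks. Itgb2 did not overlap chow at either time, and Itgam did not at 16 weeks. At 8 weeks the third liver, with 1.04 CPM of Itgam and 13.9 CPM of Itgb2, lay at the chow level for the first and just above it for the second, while the other 7 livers were at 4.98 CPM or more and 57.4 CPM or more. The log2 changes were 3.22 ± 0.45 and 3.81 ± 0.46 for Itgam (edgeR adjusted p = 6.8e-06 and 6.1e-07) and 3.15 ± 0.38 and 3.71 ± 0.39 for Itgb2 (adjusted p = 1.1e-06 and 1.0e-07). C5ar2, the second C5a receptor, lies 2.59 kb from C5ar1 and changed little beside it: 3.26 ± 0.377 CPM in chow, 4.25 ± 0.866 CPM at 8 weeks and 4.31 ± 0.677 CPM at 16 weeks. Its log2 changes of 0.38 and 0.40 were called narrowly (adjusted p = 0.044 and 0.035), and leaving out 1 of 14 livers ended the 8-week call (all but chow replicate 5, 8-week replicates 2 and 3 and 16-week replicates 2, 3, 4 and 8, adjusted p 0.050 to 0.11) and 1 of 6 the 16-week call (chow replicates 1, 2 and 4 and 16-week replicates 1, 7 and 8, adjusted p 0.051 to 0.096).

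Set beside the genes of their ligands, the fragment receptors gained at both times. Per length C3ar1 was 0.000530 of C3 in the median chow liver, 0.00545 at 8 weeks and 0.00986 at 16 weeks. C5ar1 was 0.00220 of Hc in chow, 0.0626 at 8 weeks and 0.127 at 16 weeks. For both ratios the lowest diet liver was above the highest chow liver, at 0.00203 against 0.000723 for C3ar1 to C3 and 0.0254 against 0.00511 for C5ar1 to Hc. The receptor transcripts nevertheless stayed far below the ligand transcripts in whole liver.

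Of the 5 regulators in plasma none was called at 8 weeks, and 3 were lower at 16 weeks. Cfi, factor I, which cuts C3b and C4b, averaged 807 ± 46.7 CPM in chow and 504 ± 53.1 CPM at 16 weeks (log2 -0.68, adjusted p = 0.0021). Serping1, the C1 inhibitor, averaged 1218 ± 139 and 755 ± 83.5 CPM (-0.69, adjusted p = 0.032), and Vtn, vitronectin, which blocks the forming pore, 3373 ± 354 and 2027 ± 278 CPM (-0.73, adjusted p = 0.019). Any of 5 livers left out (replicates 3 and 5 of chow, and 2, 5 and 6 of 16 weeks) took the Serping1 fall past the threshold (adjusted p 0.050 to 0.065). C4bp, the cofactor that binds C4b, averaged 746 ± 80.3, 759 ± 171 and 614 ± 97.8 CPM and was not called. Clu, clusterin, averaged 2328 ± 325, 3329 ± 1555 and 3079 ± 453 CPM and was not called either (log2 0.52, adjusted p = 0.063, and 0.40, adjusted p = 0.14). The 8-week mean of Clu was 2809 ± 547 CPM without the third liver. Clu was called higher at 8 weeks without 8-week replicate 1, 6 or 7 (adjusted p 0.038 to 0.044). Without the third 8-week liver C4bp was lower (-0.29, adjusted p = 0.024) and Clu higher (0.40, adjusted p = 0.018) at 16 weeks.

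Of the 3 regulators on cell membranes 1 was called. Cd59a, which stops C9 from polymerising, fell from 51.9 ± 2.12 CPM in chow to 40.9 ± 7.81 CPM at 8 weeks (log2 -0.34, adjusted p = 0.031) and 29.1 ± 4.11 CPM at 16 weeks (-0.83, adjusted p = 1.4e-05), with no overlap at 16 weeks. The 8-week call of Cd59a ended without 1 of 5 livers (chow replicates 1, 3 and 5 and 8-week replicates 4 and 6, adjusted p 0.051 to 0.063). Cd55, decay-accelerating factor, averaged 18.0 ± 2.74, 16.7 ± 5.32 and 13.6 ± 3.08 CPM and was not called (16 weeks -0.40, adjusted p = 0.17, and 0.016 without the third 8-week liver). Cd46, a cofactor for C3b cleavage that mice express mainly in the testis, averaged 0.939, 0.944 and 1.07 CPM and was not called, with a 95% interval of -0.24 to 0.61 at 16 weeks.

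Per length the order of the members changed with the diet. In chow the highest were C3, Vtn, Clu and Serping1, at medians of 1952, 1666, 674 and 512 RPKM, and the same 4 genes held the top 4 places at both diet times. C1qb moved from place 20 of 38 in chow to place 5 at 16 weeks and C1qa from place 19 to place 7. Mbl2 went from place 8 to place 17, and C8b from place 10 to place 18. In chow the livers overlapped in 27 of the 37 pairs of neighbours in that order, C3 and Vtn among them, so most neighbouring places did not differ beyond the spread. The 10 steps without overlap were those from Vtn to Clu, C8a to Cfi, Mbl2 to Hc, Masp2 to C1ra, C1qb to Fcna, Fcna to Cd59a, C1qc to Colec11, Colec10 to Cd55, Itgb2 to C7 and C5ar1 to Itgam. Itgam and C5ar1 stayed among the lower members even after their rise, at 2.49 and 9.50 RPKM at 16 weeks.

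**Figure D4:**
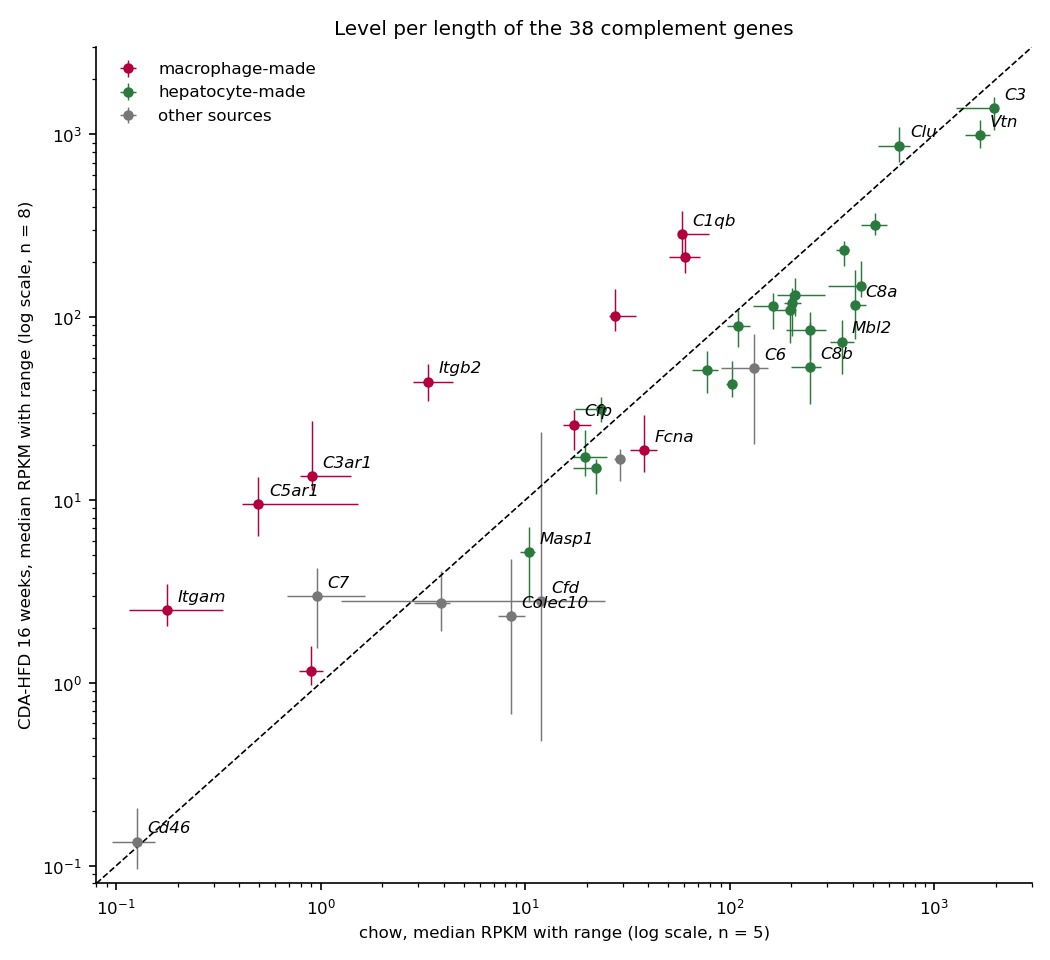
Median RPKM in chow (x axis) and at 16 weeks (y axis) for the 38 genes on log scales, with lines from the lowest to the highest liver and the dashed line marking equality. Macrophage-made genes lie above the line except Fcna, and most hepatocyte-made genes below it.

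The falls of hepatocyte-made complement can be set beside those of other hepatocyte products. Of 20 secreted hepatocyte proteins outside complement, none was higher and 13 were lower at 16 weeks, with a median log2 change of -0.77, close to the -0.73 of the hepatocyte-made members. At 8 weeks 4 were higher and 4 lower, with a median of 0.19, against -0.20. From 8 to 16 weeks 19 of the 20 were lower. Over all genes 29.4% were higher and 22.5% lower at 16 weeks, and 30.8% and 20.5% at 8 weeks. From 8 to 16 weeks 11.0% of all genes were lower.

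Of 29 further genes of the pathway, listed beside the members, 28 were found and 25 passed the filter. At 8 weeks 6 were higher and 9 lower, and at 16 weeks 3 were higher and 13 lower. Over all genes 30.8% were higher and 20.5% lower at 8 weeks, and 29.4% and 22.5% at 16 weeks. The strongest rise was Itgax, the CD11c chain of complement receptor 4, from 1.19 ± 0.109 CPM in chow to 48.3 ± 19.2 CPM at 8 weeks and 70.0 ± 12.5 CPM at 16 weeks (log2 5.34 and 5.87, adjusted p = 3.7e-10 and 9.7e-11). Cd93, a glycoprotein once described as a C1q receptor, rose by 1.34 and 1.67, and Fpr2, a chemotactic receptor of myeloid cells, by 1.65 and 0.85. Apcs (serum amyloid P, a C1q ligand) rose by 1.15, Calr (calreticulin) by 0.63 and Vsig4 (a C3b receptor of Kupffer cells) by 0.58 at 8 weeks, and these 3 were not called at 16 weeks (log2 0.16, -0.14 and 0.06).

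Large falls in that list were in regulators and C4a. Cfhr2 and Cfhr3, relatives of factor H, had log2 changes of -1.27 and -1.23 at 8 weeks and of -1.59 and -1.73 at 16 weeks. Susd4, a membrane inhibitor of C3 convertases, was lower at 16 weeks (log2 -2.42, adjusted p = 7.8e-05), as was Cd59b (-1.40, adjusted p = 0.00016). C4a, a near-identical copy of C4b, fell from 64.8 ± 17.8 CPM to 15.1 ± 18.6 and 4.49 ± 2.11 CPM (-2.12 and -3.85, adjusted p = 0.0014 and 2.3e-06), and since reads of the copies can be split between them, this value is uncertain. The factor H relatives also resemble one another.

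The third 8-week liver bears on the 8-week values of many members. Without it 9 members changed direction at 8 weeks, none of them called with or without it: C4b, Mbl1, C3, Cfd, C8g, Serping1, Vtn and Cd46 went from above chow to below it, and Cd55 the other way. The 8-week means of C3, Serping1 and Vtn were 9338, 1395 and 4125 CPM with that liver and 8676, 1072 and 3300 CPM without it. Those of Cfd, Cd46 and Cd55 were 50.8, 0.944 and 16.7 CPM, and 4.28, 0.910 and 18.3 CPM without that liver. Its difference from the median of the other 7 livers had a Spearman rho of -0.55 with exon length across the 38 members (and -0.30 across all genes), as a description over genes of shared libraries. Of the 19 shorter members, of 922 to 2825 bases, 16 were higher in it, with a median difference of 1.44 on the log2 scale. Of the 19 longer members, of 2981 to 9833 bases, 7 were higher, with a median of -0.48. Among the other 8-week livers, replicates 2 and 4 leaned the same way (rho -0.55 and -0.75) and replicates 7 and 8 the other way (0.55 and 0.71). Across all genes these 4 had a rho of -0.39, -0.41, 0.21 and 0.43, so the relation with length was not particular to the third liver. The change at 16 weeks had a rho of 0.00 with length across the members, and at 8 weeks -0.33. For 16 against 8 weeks, the comparison with 19 falls, the rho was 0.46 across the members, 0.56 across the hepatocyte-made members and 0.31 across all genes, so shorter genes tended to have the lower changes. The part of transcript length in the changes was not tested further.

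**Figure D5:**
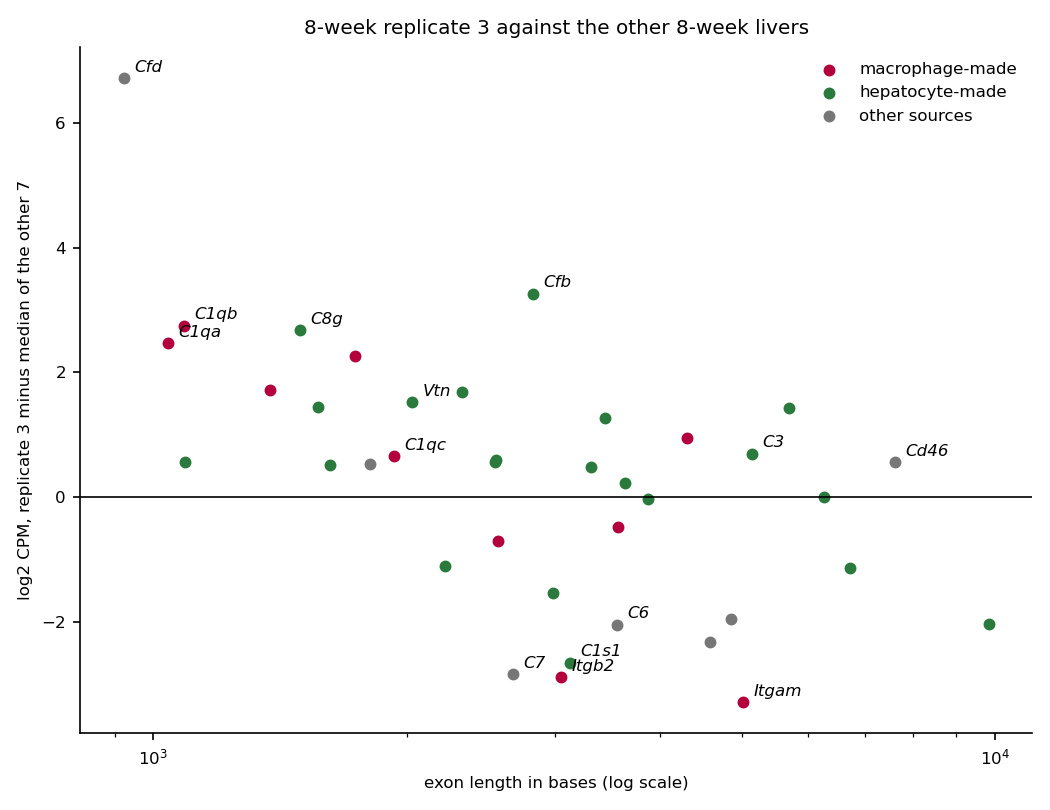
Log2 CPM of the third 8-week liver minus the median of the other 7 (y axis) against exon length on a log scale (x axis) for the 38 genes, coloured by main source. Short genes such as Cfd, C1qa, C1qb and C8g lie above 0, and longer ones such as Itgam, Itgb2 and C6 lie below it.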

How the data were processed

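The table the authors deposited holds unnormalized counts for 52636 Ensembl identifiers in 21 livers, on GRCm38 per the submitters' processing notes. Libraries were stranded total RNA, per the labels' protocols; which aligner, counter and annotation were used is not given in the sources used here. No pair of libraries was identical. The labels give each library its own number and no pooling, batch or pairing. Genes were named through GENCODE M21 and filtered with filterByExpr by group, which left 17104 genes with 99.961% of the counts. All 21 libraries were scaled with TMM and fitted together with edgeR 4.0.16 (R 4.3.3, quasi-likelihood test, Benjamini-Hochberg adjustment over all tested genes, called at 0.05). Standard errors were the log2 change divided by the square root of F. The script was tested on simulated counts. RPKM used the union of exons. Members and lists were chosen with earlier results of these data known. Full values are given for members called against chow with a log2 change of at least 1 at either time (19) or in opposite directions (1 more), and the other 18 are given by means. Of the further pathway genes, up to 6 called rises and 6 called falls of the largest size are named, except for a result that is not reported here. Alternatives were other scalings and filters, DESeq2 1.42.0, fits to 2 groups alone, fits without the 20 top genes by abundance, and libraries left out singly or together.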

Additional observations from a re-analysis of the deposited data

Results flagged for a closer look

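A library was looked at more closely when it lay far from the others of its group by Dixon's gap criterion, in 114 groups of values (38 genes in 3 groups). It marked 21, and chance alone marks about 1 in 20 groups. Of the 21, 15 were the third 8-week liver. It was far above the other 7 for 12 genes: C1qa at 983.7 CPM, C1qb at 1658 CPM, C4b at 3120 CPM, Mbl1 at 683.8 CPM, Fcna at 235.4 CPM, Cfb at 704.9 CPM, Cfp at 301.1 CPM, Cfd at 376.6 CPM, C8g at 1425 CPM, Serping1 at 3651 CPM, Clu at 6967 CPM and Vtn at 9902 CPM. It was far below them for C1ra at 77.74 CPM, C1s1 at 71.89 CPM and C4bp at 367.3 CPM. The remaining 6 were single values in other libraries. Chow replicate 2 was low for C2 (66.28 CPM) and C9 (769.0 CPM), and chow replicate 5 was high for C3ar1 (6.026 CPM). The sixth 8-week liver was high for C7 (5.202 CPM). Cfd was high in 16-week replicate 1 (21.77 CPM), and C3ar1 in 16-week replicate 8 (116.8 CPM). Fcna was marked because its change against chow had opposite directions at 8 and 16 weeks, and the tested difference between the diet groups was -1.80 on the log2 scale.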

How the results depend on the processing

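Of 114 gene results (38 genes in 3 comparisons) under up to 30 alternative settings, 47 kept their direction and call in every setting. Of the single values, 3102 kept both, 170 lost the call, 53 gained one and 88, in 25 gene results, changed direction while called in neither fit. Another 4 that were called in at least 1 fit turned, all with total counts alone: C3 at 16 weeks to 0.11 (adjusted p = 0.60), and between 8 and 16 weeks C2 to 0.0815, C3 to 0.0053 and Clu to 0.40. With total counts 9 rather than 19 members were lower at 16 weeks, and between the diet groups 6 rather than 19 were lower and 5 rather than 2 higher. Among all 17104 genes, 986 rather than 3847 were then lower at 16 weeks. Between the diet groups 245 rather than 1889 of all genes were lower and 4450 rather than 1814 higher. The number of members higher between the diet groups was 1 with DESeq2 size factors and with only the 2 groups compared. It was 1 to 2 when single libraries were left out. C3 was among the 20 most abundant genes and has no value with those left out. Between 8 and 16 weeks, calls of C2, C3, Cfi, Colec10 and Hc were also lost when 1 of 9, 16, 7, 5 and 8 livers, in that order, was left out (adjusted p 0.050 to 0.091 over the 5 genes). Calls were gained without 8-week replicate 3 for C1ra (-0.46, adjusted p = 0.0035), C1s1 (-0.34, 0.015), C4bp (-0.40, 0.0053) and Cd55 (-0.42, 0.020), and for Cfd without 8-week replicate 8 or 16-week replicate 1 (-3.36 and -3.94, adjusted p = 0.0497 and 0.048). With the 5 livers rich in squamous transcripts left out together, Cfd was lower than chow at 16 weeks (-2.67, adjusted p = 0.017) and Itgb2 higher at 16 than at 8 weeks (0.61, adjusted p = 0.020). No paired analysis was possible because the labels give no replicate numbers shared between groups. Counting error matters most where counts were lowest: C7 had 2, Cfd 11, Itgam 15 and Cd46 17 counts in their lowest 8-week livers.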

Other observations

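Among 10 regulators and signals known to induce complement genes, 8 passed the filter, and Il6 and Ifng did not. At 8 weeks 5 were higher and 1 lower, and at 16 weeks 4 were higher and 2 lower. The shares over all genes were 30.8% higher and 20.5% lower at 8 weeks, and 29.4% and 22.5% at 16 weeks. Tnf, a macrophage cytokine, averaged 0.192 CPM in chow, 3.26 CPM at 8 weeks and 4.61 CPM at 16 weeks (edgeR log2 change 4.05 and 4.54, adjusted p = 6.8e-09 and 9.0e-10). Irf1, a transcription factor of the interferon response, was higher at both times (log2 1.02 and 1.18). Il1b was higher at 8 weeks alone (0.79, adjusted p = 0.0013; 16 weeks 0.10, adjusted p = 0.65; 16 against 8 weeks -0.69, adjusted p = 0.0044). Stat3, which acts downstream of interleukin 6, was lower at both times (-0.57 and -0.71), and Cebpb was lower at 16 weeks (-0.84, adjusted p = 0.020).

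Endothelial cell markers summed to 293 to 327 CPM in chow, 241 to 430 CPM at 8 weeks and 183 to 324 CPM at 16 weeks, with 1 of 6 higher and 1 lower at 8 weeks and 1 lower at 16 weeks. Of 5 B cell markers 2 were higher at 8 weeks and 5 at 16 weeks, with sums of 4.30 to 21.04, 9.11 to 25.5 and 13.4 to 114 CPM. Cr2, the C3d receptor of B cells, averaged 0.592, 0.747 and 0.654 CPM and was not called at either time (adjusted p = 0.30 and 0.69).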
